A study of Mus musculus with 8 samples.

Results

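The ventricles of mice mutant for Mkl2 and Myh7 (the double mutant) were compared with wild type ventricles across 5250 genes, out of 37982 genes listed. A gene entered when the comparison of the 2 groups had been tested, its locus was listed for no other gene, and it reached an FPKM (fragments per kilobase of transcript, scaled to the depth of the library) of 5 in either group. All samples were ventricle of C57BL/6 pups at postnatal day 7, taken after the atria were cut away. There were 2 wild type samples, 3 double mutant samples and 3 triple mutant samples, whose values are given beside the others where they help to place a level. The labels say "double mutant" and "triple mutant", and the sample titles carry the short codes mkmy and mkmyn without spelling out a gene. That the double mutant carries altered Mkl2 and Myh7, and the triple mutant altered Nkx2-5 as well, is known from the study. The alleles, their zygosity and the sex of the pups are not given in the labels.

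Mkl2 encodes a myocardin-related transcription factor that joins serum response factor (SRF) at genes of the actin cytoskeleton and of contractile proteins. Myh7 encodes beta myosin heavy chain, the slow motor of the sarcomere, which the mouse ventricle uses before birth and largely replaces with alpha myosin heavy chain afterwards. In the days after birth the heart muscle cell also turns from glycolysis towards fatty acids burnt in mitochondria, and its capacity to divide declines.

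The accounting of genes ran as follows. The comparison had been tested for 13034 genes, another 622 had too many fragments for an estimate and 24326 were not tested by the authors. Of the tested genes 5939 shared their locus with another gene and were set aside, and 1845 of the others lay under the FPKM minimum in both groups, which left the 5250. Of these, 4878 reached the minimum in both groups. The other 372 passed through 1 group only, and 2 of them are listed at 0 in the other group. Of those 372, 32 are among the genes called below, and the direction of such a gene is tied to the group that let it in. Just inside the minimum stood Celsr2 (wild type 5.00, double mutant 2.96), and just outside it stood Dffb (3.71 and 4.999).

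The files give 1 FPKM per gene and group, so no spread between pups can be shown and the depth of the libraries is unknown. Differences are called from the authors' deposited table, where a gene counts as higher or lower at a q-value under 0.05. The labels do not say that the samples of a group came from separate litters, and the p-values measure no more than the spread among the libraries that the authors entered. The standard error that the deposited p-value implies had a median of 0.18 on the log2 scale over tested genes. The deposited p-values are smaller than the deposited statistic would give if it were a normal deviate. Read that way, 5 genes would be called higher and 2 lower.

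The mutated genes came first. Mkl2, in a locus shared with another gene, had FPKM values of 30.9 and 30.6 in wild type and double mutant (q = 0.994 in the authors' deposited table). Myh7 had too many fragments and is listed at 0, so its level was not measured. Nkx2-5, the homeodomain factor of heart muscle, stood at 43.6, 53.1 and 55.2 in wild type, double and triple mutant (q = 0.418 for the double mutant in the authors' deposited table). Since mutations can leave the amount of a transcript as it was, these values check no label.

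The identity of the tissue could be checked only in part. Of 17 entries for 16 cardiomyocyte marker genes, 13 had too many fragments, as very abundant transcripts do, 3 shared a locus, and Nkx2-5 alone was measured as a member. No lymphocyte, skeletal muscle, or neuron and Schwann cell marker was a member. Endothelial markers had 16 members, with summed FPKM of 866 in wild type and 900.3 in the double mutant, a median log2 fold change of -0.06 and no call. Fibroblast markers had 9 members, with sums of 510.0 and 608.9, a median of 0.10 and no call, and macrophage markers had 6, with sums of 47.3 and 51.9, a median of 0.30 and no call. Atrial cardiomyocyte markers had 3 members, with sums of 67.3 and 80.9 and a median of 0.305. Of these Tbx5 was called higher, where 3.52% of all members were. Nppa, also on that list but at a shared locus, was called lower (919 and 505). What remnants of atrium add to these values was not tested. Fewer cells of a type and less RNA per cell cannot be told apart in such samples.

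The double mutant ventricle had more genes called higher than lower. Calls were made for 240 of the 5250 genes (4.57%). The double mutant was higher at 185 (3.52%) and lower at 55 (1.05%). Over all 13034 tested genes, with no minimum and with shared loci kept, 2.65% were called, 1.89% higher and 0.767% lower. Higher calls had a median change of 1.57-fold, lower calls one of 1.66-fold, and 22 higher and 10 lower calls reached 2-fold. The median log2 fold change of all 5250 genes was 0.04, with quartiles of -0.16 and 0.23. Of the 240 calls, 114 sit at the lowest q-value in the file, 0.0066, so their order by q says nothing.

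**Figure D1:**
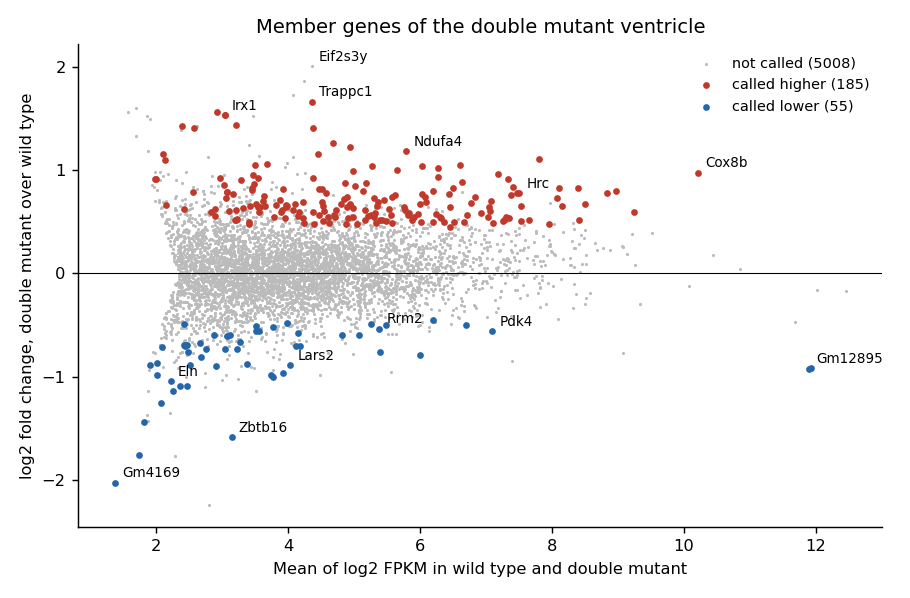
Each point is 1 of the 5250 genes, less the 2 listed at 0 in a group, with the mean of its log2 FPKM in both groups on the x axis and the log2 fold change of the double mutant over wild type on the y axis. Red points are the 185 genes called higher, blue points the 55 called lower and grey points the rest. Higher calls reach into abundant genes such as Cox8b, and most lower calls lie at low FPKM, with Gm12895 and Gm12896 far to the right.

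The share of higher calls, 77.1% of all calls, moved with how the values were scaled. When log2 fold changes were recentred on the member median the calls were 179 higher and 96 lower (65.1% higher). When the groups were rescaled to the same FPKM sum they were 178 and 101 (63.8%). When each gene was set against the median of genes of like transcript length they were 146 and 130 (52.9%). The 2 scalings shift every log2 value by 0.04. They adjust p-values over the tested genes of this comparison alone, which by itself gives 223 and 73 calls. The recomputation against transcript length adjusts over 5170 members only, so those 223 and 73 calls are not its baseline.

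Level and transcript length both went along with the direction of calls. Among the 271 genes with a mean FPKM of 100 or more, 37 were called higher (13.7%) and 4 lower (1.48%). Among the 1679 under a mean of 10, 26 were called higher (1.55%) and 29 lower (1.73%). Of the 5250 genes, 5171 had a transcript length in GENCODE M21. In the shortest of 8 bins, with transcripts of 134 to 1420 bases, the median log2 fold change was 0.22 with 64 higher and 3 lower calls. In the longest bin, from 6260 bases upward, it was -0.07 with 2 higher and 9 lower calls. The triple mutant against the same wild type samples went from 0.15 to -0.06 over the same bins. The part of transcript length in the gene changes below was not tested beyond the values given beside them.

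**Figure D2:**
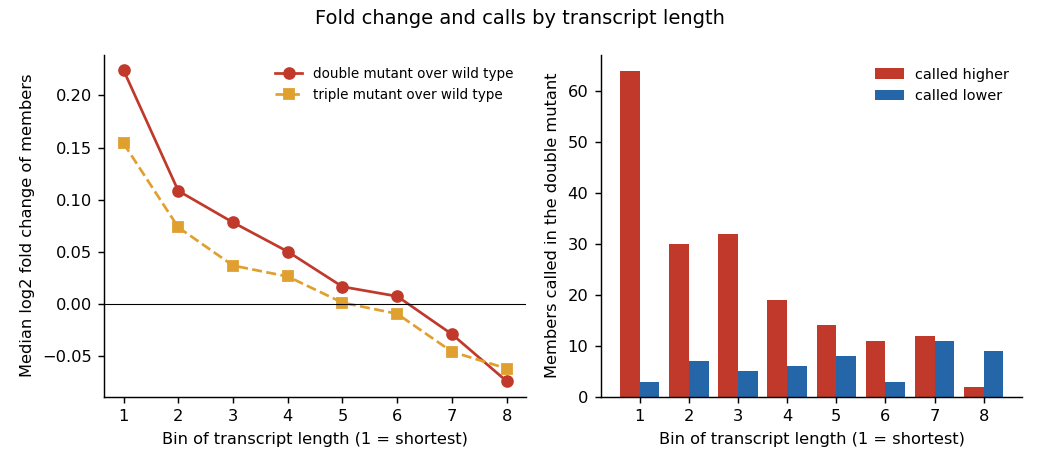
The left panel shows the median log2 fold change of members in 8 bins of transcript length, for the double mutant (circles) and the triple mutant (squares) over the same wild type group. The right panel shows how many members were called higher (red) and lower (blue) in the double mutant in each bin. The double mutant median falls from 0.22 in the shortest bin to -0.07 in the longest, and higher calls fall from 64 to 2.

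Some subunit genes of the mitochondrial respiratory chain were called higher in the double mutant, in complexes I, III and IV and in ATP synthase. The chain moves electrons from NADH and succinate to oxygen, pumps protons and so drives ATP synthase. Over 4 lists of its subunits 50 genes were members. Of these 12 were called higher and none lower, where 3.52% of all members were called higher. The log2 fold change was positive at 47 of the 50, as it was at 2870 of all 5250 members and at 72.2% of those in the shortest length bin, which holds 34 of the 50. The median was 0.36. The triple mutant had a median of 0.24 against the same wild type samples. The members are short transcripts, with a median length of 1003 bases. Set against the median of their own length bins, 39 of 50 stood above it, the median difference was 0.17, and 6 calls were made (Ndufs4, Ndufa10, Cox8b, Atp5j2, Cox5b and Ndufa4).

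Complex I takes electrons from NADH. Of its 37 genes sought, 26 were members and 11 shared a locus. Of the members 6 were called higher, beside 3.52% over all members, and the median log2 fold change was 0.34. Against their own length bins the median difference was 0.17, with 20 of 26 above. Ndufa4, which was first described in complex I and is also found with cytochrome oxidase, went from an FPKM of 36.8 to 83.4, with the triple mutant between them at 59.9 (chromosome 6, 11850373 to 11857446 in mm9). That is a 2.27-fold rise (q = 0.0066 in the authors' deposited table). Ndufa10 went from 106.0 to 173, with 153 in the triple mutant, and Ndufa12 from 21.3 to 32.7, with 30.9. In all 3 the double mutant was the highest group. The other called subunits were Ndufs4, Ndufs8 and Ndufb9, at 1.42-fold to 1.48-fold. The most abundant member, the flavoprotein subunit Ndufv1, stood at 228 and 278 and was not called.

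Complexes II and III pass electrons from succinate and ubiquinol to cytochrome c. Of 14 genes sought, 10 were members and 4 shared a locus. The log2 fold change was positive at all 10 members, with a median of 0.36. Of these 2 were called higher, beside 3.52% over all members. Against their own length bins the median difference was 0.14, with 8 of 10 above. The called genes Uqcr10 and Uqcr11 encode small subunits of complex III, so no gene of complex II was called. Uqcr10 stood at 87.9, 147 and 117 in wild type, double and triple mutant, and Uqcr11 at 49.9, 84.9 and 59.6. The abundant subunit genes Uqcrq (642 and 842) and Uqcrfs1 (522 and 678), the Rieske iron-sulfur protein, were higher by log2 values of 0.39 and 0.38 without a call.

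Cytochrome oxidase, complex IV, reduces oxygen. Of 17 genes sought, 8 were members. Of the others 3 shared a locus, 2 had too many fragments, 2 were not tested and 2 lay under the FPKM minimum. Of the 8 members 3 were called higher, beside 3.52% over all members, and the median log2 fold change was 0.47. Against their own length bins the median difference was 0.24, with 5 of 8 above. Cox8b, a subunit isoform of heart and skeletal muscle, was the most abundant gene called higher, with wild type at 848, the double mutant at 1666 and the triple mutant at 1052, a 1.97-fold rise (chromosome 7, 148084842 to 148086345). Cox5b rose 2.23-fold, from 14.7 to 32.6, with 25.2 in the triple mutant. Cox6b1 rose 1.60-fold, from 286 to 456. The triple mutant stood at 536 for Cox6b1, above both other groups. Cox7b had a higher log2 fold change than Cox6b1 (0.78, from 380 to 653) but was not called (q = 0.493 in the authors' deposited table).

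ATP synthase turns the proton gradient into ATP. Of 16 genes sought, 6 were members. Of the others 5 shared a locus, 3 had too many fragments, 1 was not tested and 1 lay under the FPKM minimum. All 6 members had a positive log2 fold change, with a median of 0.43. Against their own length bins the median difference was 0.21, with all 6 above. The 1 call, higher, stood beside 3.52% over all members. Atp5j2, a subunit of the membrane part, was called, with 67.4, 139 and 81.9 in the 3 groups. Atp5a1 and Atp5b, which encode the alpha and beta subunits, had too many fragments and were not measured.

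**Figure D3:**
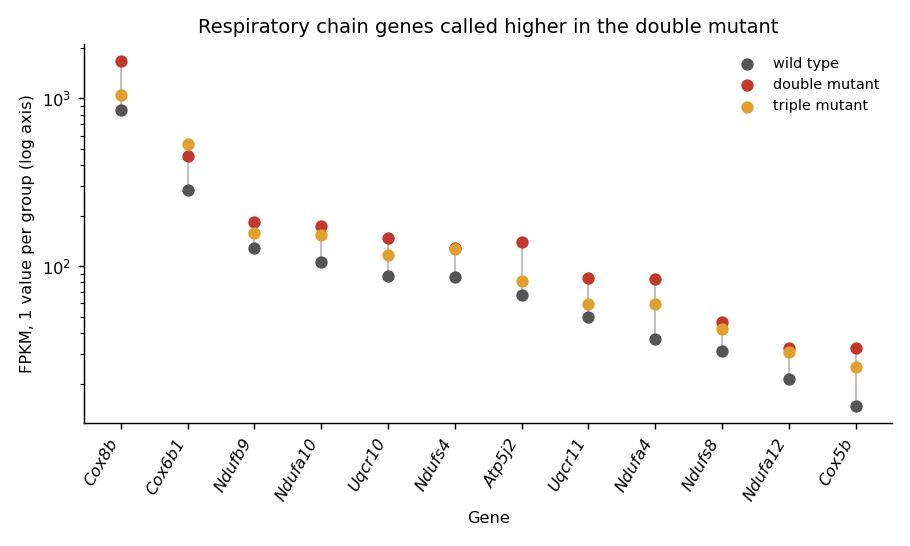
FPKM (log axis) of the 12 respiratory chain genes called higher in the double mutant, with 1 value each for wild type (grey), double mutant (red) and triple mutant (yellow). The wild type value is the lowest of the 3 for each gene, and the triple mutant exceeds the double mutant for Cox6b1 alone (536 against 456).

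Promoter windows are shown because respiratory chain genes have known regulators that bind there. RefSeq promoter windows (GRCm38.p6, 250 bases before to 50 after a start site) were found for 45 of the 50 genes. A gene was counted as matching when any of its windows held the site. The core site of NRF1 (nuclear respiratory factor 1), GCGCATGC on either strand, occurred in 9 of the 45 (20.0%). It occurred in 6.42% of the 4125 members with a window and in 3.05% of all 27025 genes with a window. The site of estrogen related receptors, TNAAGGTCA, occurred in 3 of 45 (6.67%) against 1.43% of all genes with a window. The CArG box, which SRF binds, occurred in none of the 45, and in 1.81% of all genes with a window. The called gene Uqcr11 was among the 9 with an NRF1 core. Of called genes with a window, the NRF1 core occurred in 5% of the 140 higher and 5.13% of the 39 lower. A match describes letters and shows no binding. The 2 genes of highest log2 fold change with a match before the start site were Ndufa6 (0.47; FPKM 88.4 and 122; chr15:82354322-82354419, minus strand) and Atp5k (0.45; FPKM 6.47 and 8.82; chr5:108434400-108434494, minus strand), neither of them called. Their windows around the match are printed 5′ to 3′ on the gene's strand, with the NRF1 core in capitals.
Ndufa6: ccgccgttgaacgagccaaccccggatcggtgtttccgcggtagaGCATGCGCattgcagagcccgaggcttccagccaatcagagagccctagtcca
Atp5k: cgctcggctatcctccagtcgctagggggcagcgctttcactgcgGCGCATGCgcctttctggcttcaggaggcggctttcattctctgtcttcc
In Ndufa6 the core reads on the opposite strand, 75 bases before the start. In Atp5k the marked core reads on the gene's own strand, 42 bases before it. There the core also reads on the opposite strand, in letters that overlap the marked ones and run on into lower case.

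Genes of fuel use upstream of the chain were taken next. All 10 members of the citric acid cycle list had a positive log2 fold change, with a median of 0.12. Pdhb, a subunit of the pyruvate dehydrogenase complex that feeds the cycle, was its 1 call, beside 3.52% called higher over all members. It went from 66.3 to 113, with 110.0 in the triple mutant. Pdk4, a kinase that switches this complex off, fell 1.48-fold, with wild type at 166, the double mutant at 113 and the triple mutant at 141 (q = 0.0066 in the authors' deposited table).

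Of 22 genes of fatty acid uptake and oxidation, 4 were called higher and none lower, beside 3.52% and 1.05% over all members. Their median log2 fold change was 0.18. Etfb, the electron transfer flavoprotein subunit that hands electrons from fatty acids to the chain, rose 1.69-fold, from 128 to 217. The beta-oxidation dehydrogenase Hadh went from 155 to 220, the carnitine palmitoyltransferase Cpt2 from 284 to 406 and the carnitine carrier Slc25a20 from 69.3 to 98.1. The call of Cpt2 was lost under both rescalings. Lpl, the lipase that releases fatty acids from blood lipoproteins, stood at 183 and 164 and was not called. Of the 12 members of the glycolysis list, which holds Pdk4, 1 was called lower, Pdk4, and 1 higher, Pgam2, the muscle phosphoglycerate mutase, with FPKM of 379, 660.5 and 550.0 in the 3 groups.

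Mitochondrial ribosomal proteins had 37 members and 3 calls, all higher, beside 3.52% over all members. Their values were positive at 25 and negative at 12, down to a log2 fold change of -0.77, with a median of 0.11. Mrps21 rose 2.66-fold (12.7 to 33.8), Mrps33 1.83-fold (21.4 to 39.2) and Mrps30 1.52-fold (18.9 to 28.7). Cytosolic ribosomal proteins, with 29 members, had 1 call, Rps24 (108 to 163), and a median of 0.04 that became -0.13 when set against transcript length. None of the 9 regulators of mitochondrial metabolism was called. They included the muscle regulator 2310042D19Rik (Perm1) at 81.0 and 80.4 and the uncoupling protein gene Ucp2 at 76.4 and 80.7. The difference between that list and the subunit lists was not tested.

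DNA replication and mitosis genes had values below wild type in nearly every member. Over both lists there were 40 members, 36 of them with a negative log2 fold change, and the median was -0.30. Set against transcript length the median stayed at -0.30. As deposited 2 of the 40 were called lower, where 1.05% of all members were, and 1 was called higher. Of the 2 called lower, Incenp passed the FPKM minimum through wild type alone, so its direction is tied to its entry. Under each of the 2 rescalings, and against transcript length, 6 were called lower. The triple mutant had a median of 0.15 over the same wild type samples and of 0.43 over the double mutant. The 3 comparisons share groups, so these medians are not independent of each other.

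Among the 14 replication genes the median was -0.37. Rrm2, the ribonucleotide reductase subunit that limits the supply of DNA building blocks, was called, with wild type at 49.98, the double mutant at 34.5 and the triple mutant at 50.7, a 1.45-fold fall. The double mutant was the low group, with the other groups close to each other. The helicase subunit Mcm2 stood at 23.3, 16.9 and 21.8 without a call as deposited, although it was called at a q adjusted within the comparison. Pcna, the sliding clamp, stood at 25.7, 26.7 and 33.1.

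Among the 26 mitosis genes the median was -0.29. Incenp, a scaffold of the chromosomal passenger complex, fell 1.84-fold, from 5.07 to 2.75. Pttg1, securin, which holds separase in check until anaphase, rose 2.40-fold, from 16.5 to 39.5, with 34.8 in the triple mutant. It was the 1 called higher of the 3 mitosis members with a positive value. The proliferation marker Mki67 had 113 and 90.9 without a call, and its estimate failed in the triple mutant. Of the 13 members of a list of cell cycle regulators, which includes inhibitors of division, none was called and 11 had a positive value, with a median of 0.18. Ccng1 stood at 191 and 236 and Cdkn1c, an inhibitor of cyclin-dependent kinases, at 30.4 and 37.8.

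**Figure D4:**
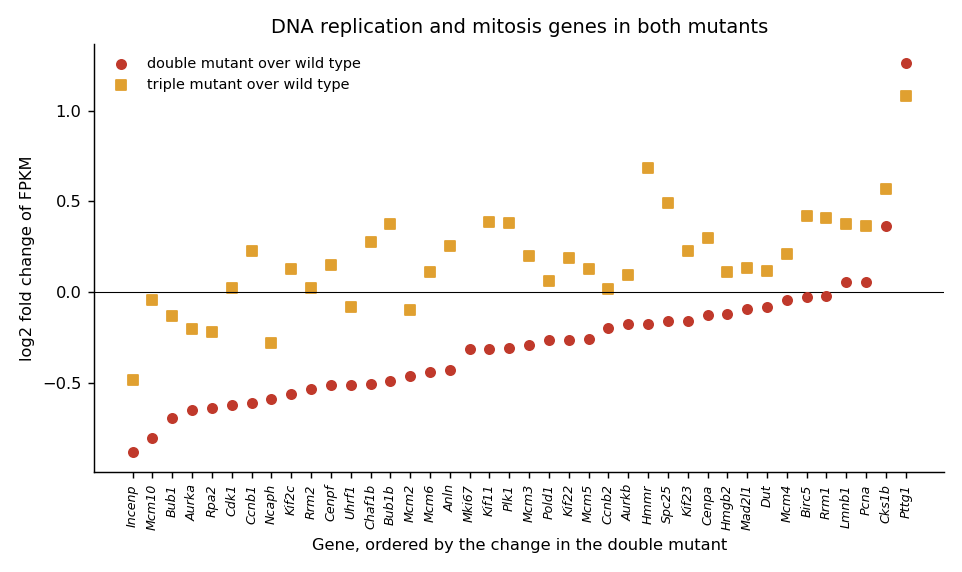
The log2 fold change over wild type of the 40 DNA replication and mitosis genes is shown for the double mutant (red circles) and the triple mutant (yellow squares; Mki67 has none), ordered by the double mutant. In the double mutant 36 of 40 lie below 0, with Incenp and Rrm2 called lower and Pttg1 called higher. The median in the triple mutant is 0.15.

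Promoter windows of this group are shown because E2F factors are known regulators of genes of division. The E2F site was searched as TTTCCCGC, TTTCGCGC, TTTGCCGC or TTTGGCGC on either strand. It occurred in 6 of the 36 genes with a window (16.7%), in 5.02% of members with a window and in 2.60% of all genes with a window. Of called genes with a window, it occurred in 5.71% of those higher and 7.69% of those lower. The 6 genes were Cdk1, Mcm3, Mcm5, Mcm6, Pold1 and Uhrf1, none of them called. Those with the largest falls in value were Cdk1, the mitotic kinase (FPKM 13.4 and 8.70; log2 -0.62; chr10:69352991-69353088, minus strand), and Uhrf1, which maintains DNA methylation at replication (22.7 and 16.0; log2 -0.51; chr17:56304083-56304180, plus strand). Their windows are printed 5′ to 3′ on the gene's strand with the E2F site in capitals.
Cdk1: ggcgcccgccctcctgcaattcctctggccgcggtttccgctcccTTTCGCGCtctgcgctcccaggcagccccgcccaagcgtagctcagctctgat
Uhrf1: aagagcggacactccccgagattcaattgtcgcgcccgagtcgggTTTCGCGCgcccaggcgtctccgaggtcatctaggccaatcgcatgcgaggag
The 2 genes carry the same 8 letters, 123 bases before the start in Cdk1 and 177 in Uhrf1.

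Further genes of cell division and DNA repair were called lower outside the 2 lists, and were picked after their values were seen. Xrcc2, a gene of recombination repair, fell 1.98-fold (18.7, 9.45 and 14.9 in wild type, double and triple mutant). Rad18, a ubiquitin ligase of damage tolerance, stood at 12.04, 7.24 and 10.9. The kinetochore genes Casc5 (21.7, 14.5 and 20.6) and Cenpi (10.3, 6.77 and 11.9) and the genes Iqgap3 (10.6, 7.06 and 10.9) and Arhgap11a (16.3, 11.4 and 16.5) were called lower as well. That these genes lie below wild type follows from how they were picked, and no list of them was tested. The MYB family factor Mybl1 fell 2.71-fold, from 5.76 to 2.12, and the tubulin gene Tubb2a 1.42-fold, from 124 to 87.3. Mybl1 passed the FPKM minimum through wild type alone, so its direction is tied to its entry.

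Transcription factors of the heart had 3 calls among 14 members, all higher, where 3.52% of all members were called higher. Of the 3, Irx1 passed the FPKM minimum through the double mutant alone, so its direction is tied to its entry. Irx1, an Iroquois homeobox factor, rose 2.89-fold, from 4.83 to 13.9, with the triple mutant at 10.1 (chromosome 13, 72095369 to 72101171). Irx5, which shapes the gradient of repolarisation across the ventricular wall, rose 1.90-fold (5.64, 10.7 and 10.3). Tbx5, a T-box factor of chamber and conduction development, rose 1.52-fold (6.96, 10.6 and 9.83). Both mutant groups stood above wild type for all 3 genes. Gata4 (80.6 and 75.9), Tbx20 (109 and 88.1) and Mef2c (77.1 and 88.3) were not called. The list as a whole had 8 positive and 6 negative values and a median of 0.13.

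Genes on which SRF and its myocardin-related cofactors act had 14 members, of which 5 were positive and 9 negative, with a median log2 fold change of -0.05. The called members were the leiomodin genes Lmod2 and Lmod3, which lengthen and nucleate actin filaments in muscle, and both were higher. Over all members 3.52% were called higher. Lmod2 rose 1.79-fold (127 and 227) and Lmod3 1.48-fold (38.7 and 57.2). Smooth muscle actin, Acta2 (199 and 169), the regulatory light chain gene Myl9 (196 and 182) and the profilin gene Pfn1 (295 and 350.0) were abundant members without a call.

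Of 26 sarcomere genes sought 19 entries had too many fragments, so the contractile apparatus was largely unmeasured. Of its 5 members the Z-disc gene Synpo2l was called, going from 131 to 191. In the list of calcium handling genes 2 of 7 members were called, both higher, beside 3.52% over all members. Hrc, the histidine-rich calcium binding protein of the sarcoplasmic reticulum, stood at 138, 237 and 163 in the 3 groups. S100a1, a calcium sensor that acts on the calcium pump and the ryanodine receptor, stood at 206, 366 and 268. Casq2, calsequestrin, stood at 229 and 216. Of 13 channel and conduction genes, Kcnip2, a subunit of the transient outward potassium channel, was called, with 46.4, 68.4 and 46.2. Its triple mutant value lay beside the wild type one.

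The fetal and stress programme, which failing hearts switch back on, had no call among its 9 members. It was measured only in part. Of 22 genes sought, 8 shared a locus, 2 had too many fragments, 2 were not tested and 1 lay under the FPKM minimum. The natriuretic peptide gene Nppa, at a shared locus and picked after its values were seen, was called lower (919 and 505). Its median of 0.06 became -0.03 when set against transcript length. Ankrd1, an ankyrin repeat protein of strained muscle, stood at 315 and 329, the natriuretic peptide gene Nppb at 150.0 and 148, and slow troponin I, Tnni1, at 155 and 211 (q = 0.0527 in the authors' deposited table). The Hippo pathway (10 members), TGF-beta signalling (8 members) and the proteasome (17 members) had no call either, with medians of -0.03, 0.01 and 0.06. The sign of the TGF-beta median reversed under both rescalings, and that of the proteasome when set against transcript length.

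**Figure D5:**
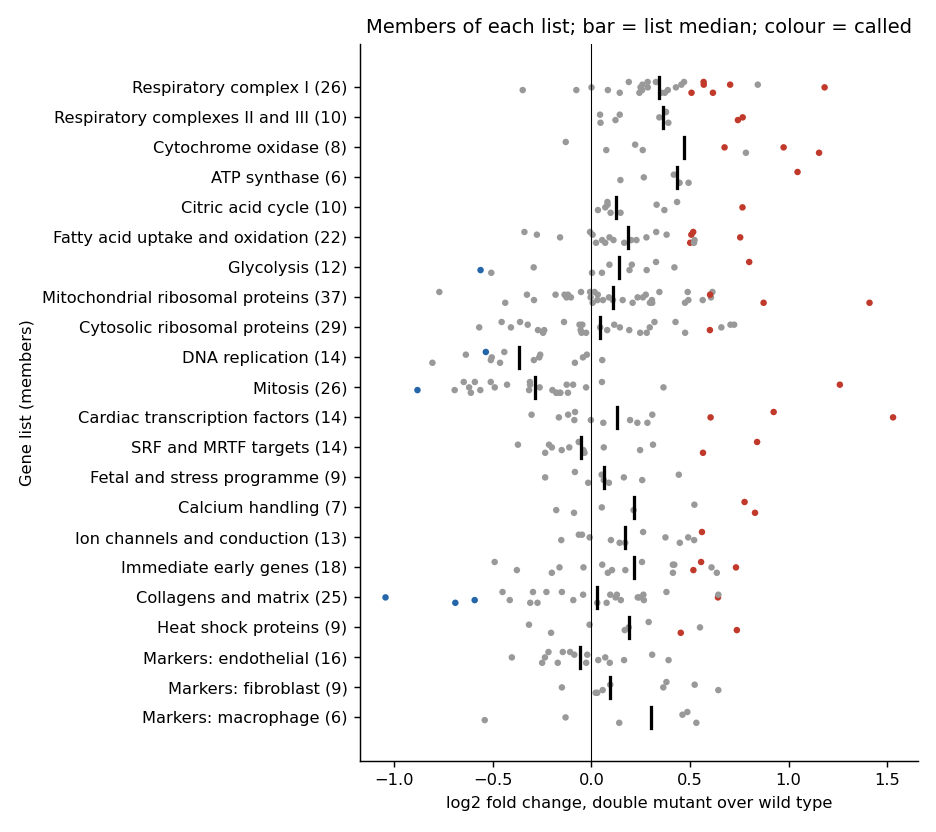
Each point is the log2 fold change, double mutant over wild type, of 1 member gene of a list, with the number of members in brackets. Black bars are list medians, red and blue points are genes called higher and lower, and grey points were not called. The 4 respiratory chain lists have medians of 0.34 to 0.47, and DNA replication and mitosis have medians of -0.37 and -0.29.

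Immediate early genes had 18 members and 3 calls, all higher, beside 3.52% over all members. Btg2, an antiproliferative gene, rose 1.66-fold (30.5, 50.7 and 43.3), the AP-1 factor Fosl2 1.43-fold (7.67, 11.0 and 8.85) and the endothelial flow-responsive factor Klf2 1.47-fold (30.4, 44.8 and 25.9). Heat shock proteins had 2 calls among 9 members, the small chaperone Hspb1 (36.7 to 61.3) and its partner Bag3 (75.02 to 103). The call of Bag3 was lost under both rescalings. Dnajb9, a chaperone of the endoplasmic reticulum, went from 13.5 to 20.7 and the mitochondrial thioredoxin Txn2 from 148 to 233, each the 1 call of its list of 12 and 17 members.

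Matrix genes had 25 members with 1 call higher and 3 lower, beside 3.52% and 1.05% over all members. Of the lower calls, Eln and Col8a1 passed the FPKM minimum through wild type alone. Elastin, Eln, fell 2.06-fold (6.67, 3.24 and 3.62). Thbs1, thrombospondin, fell 1.51-fold (34.6, 22.9 and 29.3) and the collagen gene Col8a1 1.61-fold (6.93, 4.29 and 5.11). Col6a1, a chain of the microfibrillar collagen VI, rose 1.56-fold (43.4, 67.8 and 50.2). The median of the list was 0.03 and turned negative under both rescalings and against transcript length.

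Growth factor genes had 1 call in each direction among 16 members, beside 3.52% called higher and 1.05% lower over all members. Vegfb, a vascular endothelial growth factor made in quantity by heart muscle, went from 495 to 749, with 603 in the triple mutant. The receptor gene Igf1r went from 18.6 to 13.3. Bmp7, a bone morphogenetic protein, fell 1.66-fold in the double mutant and stood highest in the triple mutant (10.5, 6.35 and 12.5).

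The 12 largest rises and falls held genes of other kinds. Trappc1, a subunit of a vesicle tethering complex, rose 3.16-fold (11.6, 36.6 and 22.0). Gstp1, a glutathione transferase, rose 2.66-fold, from 3.63, and Gm10146 2.95-fold, from 4.38. Zbtb16, a zinc finger repressor that glucocorticoids induce, fell 3.003-fold, from 15.3 to 5.09, with the triple mutant at 7.88 (chromosome 9, 48462416 to 48644050). Both mutants stood below wild type there. The SET and MYND protein gene Smyd5 fell 2.38-fold, from 6.51 to 2.73. The haematopoietic adaptor Hcls1, the glycosyltransferase B3gnt5, the peptide hormone Crh, the centriolar gene Fgfr1op and the keratin Krt18 fell by 1.98-fold to 2.21-fold. Most of the falls rest on low levels: of these 5 genes only Fgfr1op was above an FPKM of 10 in wild type. Gm4169 and 4833412C05Rik had the 2 largest falls (4.07-fold and 3.39-fold), from 5.22 and 6.12. Both of them, and Smyd5, Hcls1, B3gnt5, Crh and Krt18, passed the FPKM minimum through wild type alone. Gstp1 and Gm10146 passed it through the double mutant alone. The direction of each of these genes is tied to its entry.

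Other called genes differed in where the triple mutant lay. Ly6e, an interferon-induced membrane protein gene, was at 104, 202 and 91.2 in wild type, double and triple mutant, with the double mutant apart from the others. Lars2, picked after its values were seen, encodes the mitochondrial leucyl-tRNA synthetase and was at 22.2, 12.01 and 92.8, with the triple mutant highest. The neighbouring loci Gm12895 and Gm12896 were the most abundant called genes, at 5278 and 5334 in wild type and 2781 and 2819 in the double mutant. Their values are nearly equal in each group, so reads may be split between like copies, and both are uncertain. Histone genes have many near-identical copies and are uncertain too, since reads can be split among them. Among them Hist1h2ah (20.0 to 46.6), Hist1h2ab (135 to 232) and Hist1h2ae (16.7 to 29.4) were called higher. The 46 histone members had 24 positive and 22 negative values, and 3.52% of all members were called higher.

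Markers of mast cells and neutrophils had 4 members, 2 of them called higher, beside 3.52% over all members. Cma1, mast cell chymase, rose 2.69-fold (3.18, 8.55 and 8.39) and Srgn, the granule proteoglycan serglycin, 2.09-fold (8.87, 18.5 and 13.7). Kit, a receptor of mast cells, stood at 8.66 and 7.23, and S100a9 at 4.93 and 8.57 without a call. Cma1 and S100a9 reached the FPKM minimum in the double mutant alone, so the sums over the 4 members, 25.6 in wild type and 42.8 in the double mutant, are a description only. Of the list, 7 of 15 markers sought were under an FPKM of 1 in both groups. Aldh1a2, a retinoic acid enzyme of the epicardium, was called higher (12.6 to 19.8), with Wt1 (13.97 and 14.3) and Tbx18 (9.31 and 8.58) not called. What these cells contribute to other changes was not tested.

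Genes of the Y chromosome differed between the groups. Both Ddx3y (4.82, 13.99 and 10.02 in wild type, double and triple mutant) and Uty (5.61, 15.2 and 10.5) were called higher. Ddx3y passed the FPKM minimum through the double mutant alone, so its direction is tied to its entry. Eif2s3y stood at 10.2 and 41.1 without a call (q = 0.752 in the authors' deposited table). The X-linked gene Kdm6a stood at 14.4 and 10.4, and Xist had too many fragments for an estimate in this comparison. Between the mutants Xist was estimated, with a log2 fold change of 6.18 for triple over double mutant (q = 0.0066 in the authors' deposited table). Its locus is shared, and the make-up of each group by sex was not tested. The labels leave out whether pups were male or female, so sex and genotype cannot be told apart in any change described here. Without genes of the X and Y chromosomes the calls were 176 higher and 52 lower.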

How the data were processed

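RNA of 8 ventricle samples had been made into stranded total RNA libraries, per the labels' protocols. Per the submitters' processing notes, the software was Cuffdiff 2.2.1 and Cufflinks 2.2.1 for expression, with STAR 2.5.2 and CASAVA 1.8, and the build was mm9. The annotation is "not given in the sources used here", nor is the scaling between libraries. For each of 3 comparisons the authors deposited 1 FPKM per gene and group, the log2 ratio, a p-value, a q-value and the statistic of Cuffdiff, treated as a score. The deposited log2 fold change is the log2 ratio of FPKM with no pseudocount, and q is a Benjamini-Hochberg adjustment over all 3 comparisons; both were checked. No test across samples could be run, so the authors' q-value is the test, called under 0.05. Estimates that failed for too many fragments were treated as missing in every group. Folds were computed from FPKM with Python 3.11.15 and pandas 2.3.3, and coordinates are 1-based mm9 of the file. Transcript length is that of the longest GENCODE M21 transcript. The adjustments of shifted values were tested on simulated data.

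The members and the 48 gene lists were chosen with earlier results of these data known. Named genes are the 12 largest called rises and falls above 0 in both groups, the mutated genes, the 10 most abundant called genes, the sex-linked genes, and in each list the 3 largest called rises and falls and the 3 most abundant members; others are said to be chosen later or complete a count. Lists not described in the report had no call beyond those named or are given with it. Promoter windows are RefSeq's (GRCm38.p6). They were found for 4125 of 5250 members (78.6%), for 140 of the 185 called higher and for 39 of the 55 called lower. The 2 groups shown had 45 of 50 and 36 of 40 genes matched.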

Additional observations from a re-analysis of the deposited data

How the results depend on the processing

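The 185 higher and 55 lower calls were recounted under 15 other settings. Values of named genes were recomputed only under both rescalings, with 1 added to each FPKM, and with q adjusted within the comparison. Called genes differed by at least 1.37-fold, so none of these settings could reverse their direction. Col1a2, Id1, Ifit2 and Wt1, uncalled and near 0, changed sign when rescaled to the same sum. The count of lower calls moved by over 1.5 times under 8 of the 15 settings. It was 32 at an FPKM minimum of 10, 35 with the minimum of 5 in both groups, 97 at q under 0.1, 27 at q under 0.01, 96 when recentred on the member median, 101 when rescaled to the same sum and 130 against transcript length. The higher calls moved to 87 at q under 0.01, and to 5 with 2 lower when the deposited statistic was read as a normal deviate. Stricter and looser thresholds change the counts by construction, and for the other settings the cause was not tested. Against transcript length 276 genes were called, of which 175 are among the 240. Settings without X and Y genes, with protein-coding genes only and with transcript length were chosen after seeing the data. Of 180 named genes, 3 gained a call with q adjusted within the comparison (Mcm2, Tnni1 and Tsc22d3). Besides the changes of sign given in the report, list medians changed sign at a minimum of 10 (Hippo, natriuretic peptides, fat markers), at a minimum of 1 (TGF-beta, endoplasmic reticulum chaperones, smooth muscle markers), with shared loci kept (growth factors, matrix, interferon-stimulated genes), when rescaled to the same sum (interferon-stimulated genes, epicardial markers), when recentred (interferon-stimulated genes) and against transcript length (interferon-stimulated genes, epicardial markers).

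Limits: 1 FPKM per group hides the spread between pups, depth is unknown, and which libraries entered the authors' test is not given. No paired analysis was possible because the file holds no values per sample, although the sample titles share the letters a and b in all groups. Leaving out each sample in turn was not run for the same reason. The prefix of the sample descriptions takes 2 values, both present in every group, and could not enter a test.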

Other observations

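Genes whose locus is shared with another gene were set aside from the counts, since reads of neighbours may be mixed there. At any FPKM, 50 of the 5939 tested genes at shared loci were called higher and 24 lower. Over all 13034 tested genes 1.89% were called higher and 0.767% lower. Among those at shared loci 63 with an FPKM of 5 or more in either group were called, 44 higher and 19 lower in the double mutant. The genes named here were chosen after their values were seen. Nppa, the atrial natriuretic peptide, stood at 919, 505 and 829 in wild type, double and triple mutant. Mitochondrial and energy genes were among the higher calls. Ckmt2, the mitochondrial creatine kinase of muscle, rose 1.94-fold (90.03, 174 and 128 in the 3 groups), the complex I subunit Ndufc2 1.82-fold (341, 619.9 and 449) and the ATP synthase inhibitor Atpif1 1.76-fold (402.0, 708 and 686). Mdh1, a malate dehydrogenase, went from 162 to 272, and the glycolytic enzyme gene Tpi1 from 155 to 272. Irx3, an Iroquois factor like Irx1 and Irx5, went from 48.0 to 72.4, with 75.4 in the triple mutant, and Tecrl, an endoplasmic reticulum protein gene linked to inherited arrhythmia, from 21.3 to 45.1, with 41.1.

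Genes called lower at shared loci, picked in the same way and with no list tested, included these. Tyms, thymidylate synthase, stood at 15.7, 8.96 and 14.8 in the 3 groups, and Ect2, which steers cytokinesis, at 8.03, 3.95 and 6.91. The matrix gene Tnc, tenascin, stood at 15.7, 9.24 and 11.0.

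Under the FPKM minimum lay 1845 tested genes with a locus of their own. Of these, 31 were called with an FPKM above 0 in both groups, 11 higher and 20 lower. Over all tested genes 1.89% were called higher and 0.767% lower. Cpa3, the carboxypeptidase of mast cells, stood at 1.25, 4.70 and 5.80. The licensing factor Cdc6 (3.56, 1.52 and 3.40) and the repair polymerase Polq (3.85, 1.91 and 3.30) were lower in the double mutant.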
